A study of Mus musculus with 28 samples.

Results

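Genes that mark epithelial or mesenchymal cells, 10 in all, were followed in 7 doxycycline-inducible mouse embryonic stem cell (mESC) lines: Cdh1, Cdh2, Epcam, Krt8, Krt18, Krt19, Cldn6, Cldn7, Vim and Grhl2. They were taken by name from a table of 19421 genes, and all 10 were among the 16837 genes kept after a filter on low values. The study induced Atoh1, Gfi1 and Pou4f3, transcription factors of the sensory hair cells of the inner ear, alone and in every combination, and asked how each combination acts on differentiating cells. The lines are named by their cassette: iAtoh1, iGfi1, iPou4f3, iG+A (Gfi1 and Atoh1), iG+P (Gfi1 and Pou4f3), iP+A (Pou4f3 and Atoh1) and iGPA (all 3 factors). RNA-seq was carried out on 28 libraries, 2 with Dox and 2 without for each line.

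All lines were made in the same A2loxCre parent, whose insertion site carries the cassette behind a tetracycline-responsive promoter, with the factors and the fluorescent protein mVenus joined by 2A peptides. Cells were grown as embryoid bodies (EBs), aggregates that form derivatives of all germ layers. Dox was given at 2 µg/ml for 48 h from day 4, and mVenus+ cells were sorted at day 6. The controls were untreated EBs of the same line and day, and they were not sorted, so that Dox and sorting cannot be told apart in any comparison of Dox with No Dox. The labels name different clones as replicates, which makes n = 2 per group. In these bulk samples fewer cells of a type and less RNA per cell cannot be told apart.

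The depth of the libraries, estimated from the steps between low values, was 30.3 M to 48.0 M reads. Between 17628 and 18074 genes were above 0 in a library. The induced factors were where the labels place them: in lines that carry it, Atoh1 stood at 12816 to 21242 normalized counts with Dox and at 29.6 to 120.1 without. Gfi1 stood at 8119 to 12487 with Dox and at 57.9 to 119 without, and Pou4f3 at 4694 to 19883 with Dox and at 2.22 to 72.6 without. No pair of replicates held identical values.

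Epithelial cells are tied to each other by adherens junctions, desmosomes and tight junctions and carry a network of keratin filaments. E-cadherin (Cdh1) and Epcam are adhesion molecules of their surface, claudins seal the tight junctions, and keratins 8, 18 and 19 form the filaments of simple epithelia. Mesenchymal cells are loosely attached, carry filaments of vimentin (Vim) and often N-cadherin (Cdh2), which is also the cadherin of neural tissue. Cells pass from the first state to the second when repressors of the Snail and Zeb families bind E-boxes (CACCTG) in epithelial genes, and Grhl2 is a transcription factor that sustains the epithelial state. Undifferentiated mESCs carry E-cadherin and Epcam as well, and the endoderm of EBs is a simple epithelium.

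The windows of 250 bases before the annotated start of these genes are printed because the Snail and Zeb families bind CACCTG, and because the genes of the keratin pair Krt8 and Krt18 lie next to each other. Windows of 6 of the 10 genes, in 7 entries, were taken from RefSeq promoters (GRCm38.p6). The absence of a gene from these windows does not show that RefSeq holds no promoter for it. CACCTG and its reverse complement CAGGTG are in capitals below. The windows of the 5 entries with CACCTG on either strand follow, 5′ to 3′ on the strand of the gene. They are the windows of Krt8 (chr15:102004343-102004592, minus strand), Krt18 (chr15:102027966-102028215, plus strand), Cldn6 (chr17:23679115-23679364, plus strand), a second start of Cldn7 (chr11:69965171-69965420, plus strand) and Epcam (chr17:87635729-87635978, plus strand).
Krt8: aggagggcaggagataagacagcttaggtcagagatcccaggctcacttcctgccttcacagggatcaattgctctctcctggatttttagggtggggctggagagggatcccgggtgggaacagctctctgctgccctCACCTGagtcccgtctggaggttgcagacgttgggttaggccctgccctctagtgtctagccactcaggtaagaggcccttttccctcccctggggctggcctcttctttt
Krt18: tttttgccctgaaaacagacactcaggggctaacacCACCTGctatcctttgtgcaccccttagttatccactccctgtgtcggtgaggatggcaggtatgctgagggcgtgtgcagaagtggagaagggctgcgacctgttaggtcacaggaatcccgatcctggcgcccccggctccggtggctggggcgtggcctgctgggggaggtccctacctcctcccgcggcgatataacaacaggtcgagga
Cldn6: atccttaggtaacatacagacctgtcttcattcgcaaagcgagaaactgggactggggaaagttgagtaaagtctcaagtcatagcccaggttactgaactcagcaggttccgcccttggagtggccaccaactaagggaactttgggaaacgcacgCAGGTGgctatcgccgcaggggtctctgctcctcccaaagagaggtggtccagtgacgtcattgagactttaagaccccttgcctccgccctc
Cldn7: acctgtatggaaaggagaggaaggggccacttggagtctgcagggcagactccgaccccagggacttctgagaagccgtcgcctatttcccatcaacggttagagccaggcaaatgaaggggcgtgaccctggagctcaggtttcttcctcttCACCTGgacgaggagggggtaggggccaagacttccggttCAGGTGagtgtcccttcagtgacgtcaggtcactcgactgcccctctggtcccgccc
Epcam: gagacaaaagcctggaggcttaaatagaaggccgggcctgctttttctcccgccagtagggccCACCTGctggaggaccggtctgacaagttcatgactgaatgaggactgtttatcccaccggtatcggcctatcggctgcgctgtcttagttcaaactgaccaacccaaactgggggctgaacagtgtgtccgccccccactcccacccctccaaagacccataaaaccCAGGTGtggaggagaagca

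The windows of Krt8, Krt18 and Cldn6 hold 1 match each, and those of Cldn7 and Epcam hold 2. In comparison, 17.22% of 32841 promoter windows of the same length hold CACCTG on either strand. The windows of Vim and of the other start of Cldn7 hold none. CACCTG is also a case of CANNTG, the E-box that factors of Atoh1's class bind, which is in 66.23% of all windows. None of the 7 entries holds, on either strand, the E-box CAGCTG (13.0% of all windows), AATCA, the core of Gfi1 sites (33.7%), or AACNNGTT, the motif of Grhl factors (3.64%). A match describes the letters of the window and is not a measured binding site.

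In untreated EBs, levels per kilobase of exon differed widely between the genes. The medians over the 14 untreated libraries, in normalized counts per kilobase, were 13337 for Vim, 10809 for Krt18 and 5643 for Krt8. Cdh2 (669), Cldn6 (628) and Krt19 (613) came next, followed by Epcam (491) and Cdh1 (348). Cldn7 (177) and Grhl2 (38.3) were lowest. Ranges over the libraries overlapped for every pair of neighbours in this order but Krt8 and Cdh2. In the 14 Dox libraries the medians were 5230 for Vim, 2890 for Krt18, 1169 for Krt8 and 370.3 for Epcam, followed by Cdh2 (351), Cldn6 (250.2), Cdh1 (199) and Krt19 (122). Krt19, which stood above Epcam and Cdh1 without Dox, thus stood below both with it. The plot of every library by gene shows these levels.

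**Figure D1:**
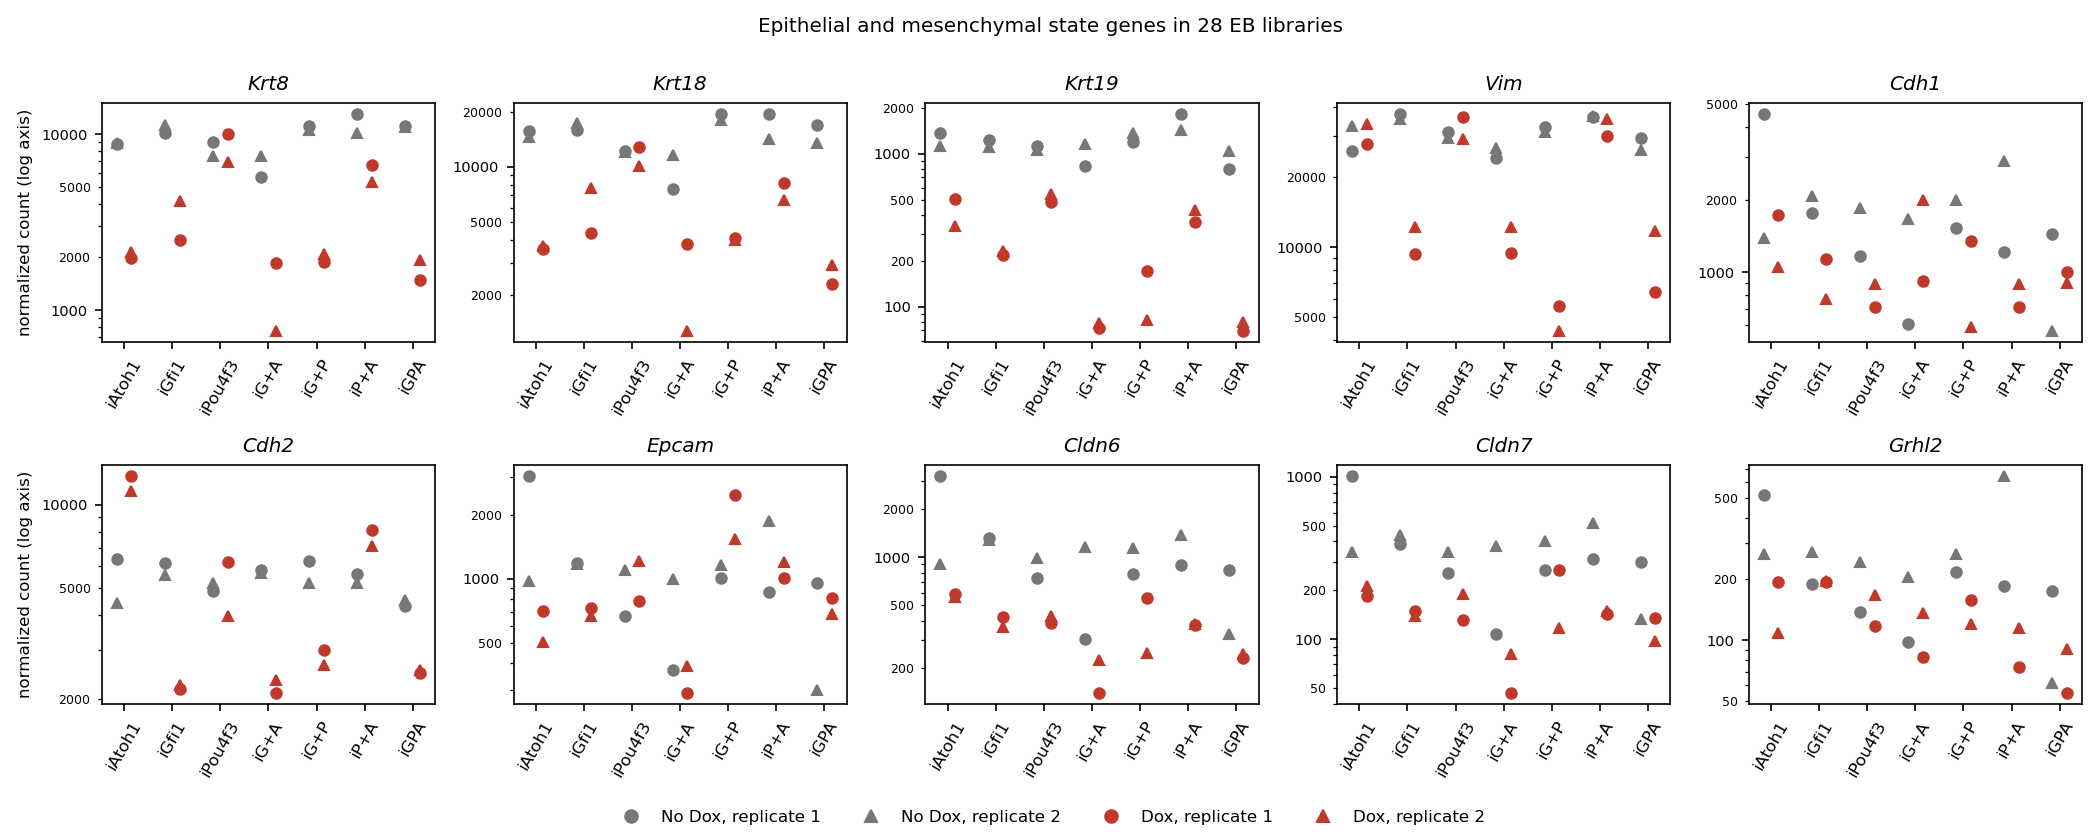
Normalized counts (log axis) of the 10 genes in each of the 28 libraries, one panel per gene, lines along the horizontal axis. Grey points are untreated EBs and red points are sorted Dox cells, circles are replicate 1 and triangles replicate 2. For Krt19 every Dox library lies below every untreated one, at 69.5 to 544.7 against 797.7 to 1827, whereas the untreated replicates of Cdh1, Epcam, Cldn6, Cldn7 and Grhl2 spread over an 8.01-fold to 10.6-fold range.

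Below, a gene fell or rose where limma gave a Benjamini-Hochberg adjusted p under 0.05 over all kept genes and its log2 fold change was 1.5 or more above or below 0. The values are differences of log2(normalized count + 1), and their SE rests on a spread shared by all 14 groups.

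The keratins of simple epithelia were the most widely affected of the 10 genes. Krt19 fell in 6 of 7 lines and Krt8 and Krt18 in 5 of 7 each, and none of them rose. The mean Dox effect over the 7 lines was -2.54 ± 0.10 (SE), adjusted p = 3.64e-13, for Krt19, -1.77 ± 0.11 (SE), adjusted p = 2.09e-10, for Krt8 and -1.67 ± 0.13 (SE), adjusted p = 3.17e-09, for Krt18, all log2 fold changes by limma. These were 3 of the 10 genes past the threshold in the mean over lines, and the other 7 were not, where 2.05% of all kept genes fell.

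Krt8 (Entrez 16691, chr15:101827142-101834773, minus strand, NCBIM37 here and for the genes that follow) encodes the type II keratin that pairs with keratin 18. In iAtoh1 it stood at 8759 and 8843 without Dox and 1988 and 2139 with Dox, in normalized counts. In iGfi1 the values were 10175 and 11304 without Dox and 2494 and 4157 with Dox. In iG+A they were 5722 and 7552 without Dox and 1858 and 763 with Dox. Dox and No Dox did not overlap in these lines, and the second Dox library of iG+A was the lowest of all 28. In iG+P Krt8 stood at 11094 and 10613 without Dox and 1881 and 2079.7 with Dox. In iGPA it stood at 11168 and 10999 without Dox and 1481 and 1926 with Dox. In iP+A it stood at 13059.8 and 10198 without Dox and 6683 and 5356 with Dox. The iP+A Dox libraries lay below their controls, and above the Dox libraries of the 5 lines just named. In iPou4f3 the groups overlapped, at 9070.4 and 7550.0 without Dox and 9998 and 6897 with Dox.

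The log2 fold change of Krt8 was -2.71 ± 0.30 (SE), adjusted p = 7.74e-07, in iGPA, and -2.46 ± 0.30 (SE), adjusted p = 3.66e-06, in iG+A. It was -2.46 ± 0.30 (SE), adjusted p = 4.2e-06, in iG+P, -2.09 ± 0.30 (SE), adjusted p = 6.64e-05, in iAtoh1 and -1.74 ± 0.30 (SE), adjusted p = 0.000401, in iGfi1. In iGPA this is a level 6.56-fold lower than in untreated EBs. The effect in iP+A (-0.95 ± 0.30 (SE), adjusted p = 0.0258) passed on p and not on size, and that in iPou4f3 was 0.01 ± 0.30 (SE), adjusted p = 0.997. Without the first Dox library of iGfi1 the effect there was -1.37, adjusted p = 0.0158, under the threshold of size.

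Krt18 (Entrez 16668, chr15:101858647-101862457, plus strand) encodes the type I partner of keratin 8 and lies on the same chromosome. It stood at 15619 and 14648 without Dox and 3569 and 3708 with Dox in iAtoh1. In iGfi1 it stood at 15945 and 17319.8 without Dox and 4341 and 7685 with Dox. In iPou4f3 it stood at 12208 and 12086 without Dox and 12900.1 and 10124 with Dox. The groups overlapped in iPou4f3 and were apart in the other two. In iG+A the values were 7619.5 and 11612 without Dox and 3783 and 1275 with Dox. In iG+P they were 19541 and 17999 without Dox and 4106 and 3987 with Dox. In iP+A they were 19356 and 14145 without Dox and 8174 and 6644 with Dox, and in iGPA 16859.7 and 13475 without Dox and 2286 and 2906 with Dox. In each of these 4 lines both Dox libraries lay below both controls.

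By limma, Krt18 had a log2 fold change of -2.55 ± 0.34 (SE), adjusted p = 8.35e-06, in iGPA, -2.21 ± 0.34 (SE), adjusted p = 6.08e-05, in iG+P, and -2.10 ± 0.34 (SE), adjusted p = 9.67e-05, in iG+A. It was -2.06 ± 0.34 (SE), adjusted p = 0.000305, in iAtoh1, -1.52 ± 0.34 (SE), adjusted p = 0.00318, in iGfi1, -1.17 ± 0.34 (SE), adjusted p = 0.018, in iP+A (short of the size) and -0.09 ± 0.34 (SE), adjusted p = 0.928, in iPou4f3. The iGfi1 call is close to the threshold: it was lost under quantile normalization (-1.49, adjusted p = 0.00375), under 75th percentile rescaling (-1.48, adjusted p = 0.00344) and against all 14 untreated libraries (-1.33, adjusted p = 0.0015), and without the first Dox library the value was -1.11, adjusted p = 0.0771. It was also lost without the second control (-1.46, adjusted p = 0.0321), and the iG+A call without the second Dox library (-1.31, adjusted p = 0.00169).

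Per kilobase, Krt18 stood at 1.58 to 2.30 times Krt8 in the untreated libraries and at 1.58 to 2.81 times in the Dox libraries, while Krt8 itself spanned a 13.1-fold range over the Dox libraries. Within lines the ratio was higher with Dox in iGfi1 (2.24 to 2.38 against 1.98 to 2.02), iG+A (2.16 to 2.62 against 1.72 to 1.98) and iG+P (2.47 to 2.81 against 2.19 to 2.27) and lower in iP+A (1.58 to 1.60 against 1.79 to 1.91), and the ranges overlapped in the other 3. Over the 14 Dox libraries their log2 levels correlated at r = 0.973 and over the 14 untreated ones at r = 0.899, a description over libraries that share lines and controls. The windows printed above are 23.4 kb apart at their nearest ends, and each holds a single CACCTG.

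Krt19 (Entrez 16669, chr11:100002124-100009979, minus strand) encodes the smallest type I keratin, found in simple and ductal epithelia. In iG+A it stood at 832 and 1157 without Dox and 72.3 and 78.1 with Dox. In iGPA it stood at 798 and 1047 without Dox and 69.5 and 79.7 with Dox. In iG+P it stood at 1186 and 1374 without Dox and 170.0 and 82.3 with Dox. The Dox values of these lines were the lowest of all. In iGfi1 the values were 1224 and 1102 without Dox and 219 and 233 with Dox. In iP+A they were 1827 and 1439 without Dox and 357 and 429 with Dox. In iAtoh1 they were 1364 and 1117 without Dox and 502 and 339 with Dox, and in iPou4f3 1119 and 1052 without Dox and 487 and 545 with Dox. Every Dox library lay below every untreated library of any line, which held for 0.172% of all kept genes.

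The log2 fold change of Krt19 was -3.69 ± 0.26 (SE), adjusted p = 6.54e-09, in iG+A, -3.60 ± 0.26 (SE), adjusted p = 4.65e-09, in iGPA, and -3.42 ± 0.26 (SE), adjusted p = 1.96e-08, in iG+P. It was -2.36 ± 0.26 (SE), adjusted p = 7.04e-06, in iGfi1, -2.05 ± 0.26 (SE), adjusted p = 1.29e-05, in iP+A and -1.58 ± 0.26 (SE), adjusted p = 0.00029, in iAtoh1. In iG+A the level was 12.9-fold lower than in untreated EBs, the largest Dox effect of the 10 genes. In iPou4f3 (-1.07 ± 0.26 (SE), adjusted p = 0.0212) the difference passed on p and not on size. The iAtoh1 call was lost without the first control (-1.43, adjusted p = 0.00586) or the second Dox library (-1.29, adjusted p = 0.00898). Against all 14 untreated libraries it was lost as well (-1.49, adjusted p = 2.5e-05).

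Beside the keratins stand the markers of endoderm, an epithelium that carries them. Their summed level was 14058 to 22593 normalized counts in untreated EBs and 4771 to 16406 with Dox, and no marker was at 0 in all libraries of either kind. Of the 16 markers, 7 fell in iG+P (5.36% of all kept genes did), 6 in iGPA (5.31%), 6 in iG+A (4.95%), 6 in iAtoh1 (2.52%), 5 in iGfi1 (2.67%), 2 in iPou4f3 (0.606%) and 1 in iP+A (2.58%), and 1 rose in each of iG+A (7.35%) and iGPA (8.65%). Rbp4, the retinol carrier of visceral endoderm, fell by 3.51 on the log2 scale in iGPA and by 1.77 in iPou4f3. The transcription factor Hnf4a fell by 3.35 in iG+P. Whether fewer endoderm cells among the sorted cells take part in the lower keratins was not tested.

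Vim (Entrez 22352, chr2:13495554-13504453, plus strand) encodes the intermediate filament protein of mesenchymal cells, and was the most abundant of the 10 genes. It fell in iGfi1, iG+P and iGPA and did not rise in any line. In iG+P it stood at 32925 and 31069 without Dox and 5608 and 4377 with Dox. In iGfi1 it stood at 37387 and 35414 without Dox and 9316 and 12191 with Dox. In iGPA it stood at 29517 and 26187 without Dox and 6441 and 11761 with Dox. All 3 lines carry Gfi1, and in each both Dox libraries lay far below both controls. In iG+A, the fourth line with Gfi1, the values were 24098 and 26556 without Dox and 9429 and 12232 with Dox. In iAtoh1 they were 25869 and 33149 without Dox and 27692 and 33871 with Dox. In iPou4f3 they were 31216 and 29384 without Dox and 36296 and 29098 with Dox. The groups overlapped in both of these. In iP+A they were 36183 and 36712 without Dox and 29847 and 35359 with Dox, with both Dox libraries just under both controls.

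For Vim the log2 fold change was -2.69 ± 0.22 (SE), adjusted p = 3.51e-08, in iG+P, -1.77 ± 0.22 (SE), adjusted p = 1.8e-05, in iGfi1 and -1.68 ± 0.22 (SE), adjusted p = 5.13e-06, in iGPA. In iG+A it was -1.24 ± 0.22 (SE), adjusted p = 0.000185, past the threshold on p and not on size. In iAtoh1 (0.06 ± 0.22 (SE), adjusted p = 0.865), iPou4f3 (0.10 ± 0.22 (SE), adjusted p = 0.856) and iP+A (-0.17 ± 0.22 (SE), adjusted p = 0.622) the values did not pass. Without the first Dox library of iGPA the value there was -1.24, adjusted p = 0.000141, under the threshold of size. Against all 14 untreated libraries Vim passed in iG+A (-1.52, adjusted p = 2.13e-07). The 8 Dox libraries with Gfi1 in the cassette ranged from 4377 to 12232 and the 6 without it from 27692 to 36296.

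Beside Vim stand the markers of fibroblasts and mesenchyme, the cells that carry it. Their summed level was 179331 to 461793 in untreated EBs and 73655 to 379075 with Dox, and none of the 20 was at 0 in all libraries of either kind. In iAtoh1, iGfi1, iPou4f3, iG+A, iG+P, iP+A and iGPA respectively 4, 6, 0, 9, 11, 3 and 15 of them fell, where 0.606% to 5.36% of all kept genes did, and 1 rose in each of iP+A (4.7% of all kept genes) and iGPA (8.65%). The type I collagen chain Col1a2 fell by 4.34 on the log2 scale in iGPA and by 1.60 in iAtoh1, where Vim did not pass. Smooth muscle actin (Acta2) fell by 3.59 in iG+P. The part of these cells in the level of Vim was not tested.

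**Figure D2:**
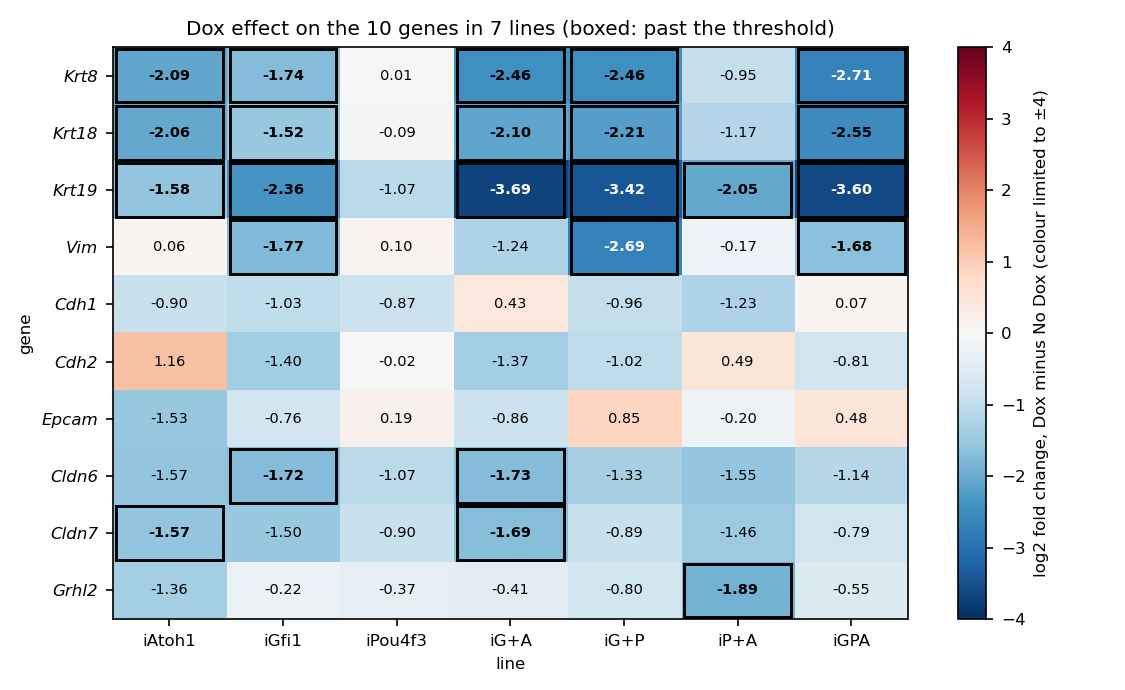
Log2 fold change of Dox against No Dox for the 10 genes (vertical) in the 7 lines (horizontal), with colour from lower (blue) to higher (red) and boxes around values past the threshold of adjusted p and size. The boxes cover the keratins in all lines but iPou4f3 (Krt8 and Krt18 also without iP+A) and Vim in 3 lines with Gfi1. They also cover Cldn6 and Cldn7 in 2 lines each and Grhl2 in 1, and no value above 0 is boxed.

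Of the cadherins, Cdh1 (Entrez 12550, chr8:109127251-109194146, plus strand), the cadherin of epithelial adherens junctions and of mESCs, did not pass the threshold in any line. In iAtoh1 it stood at 4559 and 1381 without Dox and 1729 and 1049 with Dox. In iP+A it stood at 1213 and 2909.7 without Dox and 714 and 894 with Dox. In iG+A it stood at 608 and 1662 without Dox and 921 and 1997 with Dox. The untreated replicates of these lines differed by more, on the log2 scale, than the group means did. In iGPA the values were 1440.2 and 569 without Dox and 999.7 and 903 with Dox. In iGfi1 they were 1758 and 2072 without Dox and 1128 and 772 with Dox. In iPou4f3 they were 1163 and 1847 without Dox and 716 and 892 with Dox, and in iG+P 1518 and 1985 without Dox and 1350.3 and 589 with Dox. Both Dox libraries lay below both controls in 4 lines, iGfi1, iPou4f3, iG+P and iP+A.

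The log2 fold changes of Cdh1 ran from -1.23 ± 0.60 (SE, adjusted p = 0.144) in iP+A to 0.43 ± 0.60 (SE, adjusted p = 0.594) in iG+A. Their SE was 0.60 in each line, and the 95% interval in iAtoh1 ran from -2.15 to 0.36. In the mean over lines the effect was -0.64 ± 0.23 (SE), adjusted p = 0.02, 1.56-fold lower with Dox and short of the threshold of size.

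Cdh2 (Entrez 12558, chr18:16747386-16967755, minus strand), the cadherin of neural and mesenchymal cells, was higher with Dox in iAtoh1 and iP+A and lower in the 4 lines with Gfi1. In iAtoh1 it stood at 6360.3 and 4452 without Dox and 12714 and 11199 with Dox. In iP+A it stood at 5631 and 5222 without Dox and 8140.3 and 7087 with Dox. In iPou4f3 it stood at 4897 and 5219 without Dox and 6207 and 3993 with Dox. The Dox libraries of iAtoh1 and iP+A lay above their controls and those of iPou4f3 on both sides of them. In iGfi1 the values were 6161 and 5571 without Dox and 2183 and 2244 with Dox. In iG+A they were 5840.0 and 5675 without Dox and 2105 and 2343 with Dox. In iG+P they were 6258 and 5220.5 without Dox and 3002 and 2656 with Dox, and in iGPA 4310.2 and 4535 without Dox and 2491 and 2544 with Dox. In all 4 lines with Gfi1 both Dox libraries lay below both controls. Its 8 Dox libraries with Gfi1 ranged from 2105 to 3002 and the 6 without from 3993 to 12714.

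Dox effects on Cdh2 were log2 fold changes of 1.16 ± 0.17 (SE), adjusted p = 6.64e-05, in iAtoh1 and 0.49 ± 0.17 (SE), adjusted p = 0.0388, in iP+A. It was -1.40 ± 0.17 (SE), adjusted p = 1.29e-05, in iGfi1, -1.37 ± 0.17 (SE), adjusted p = 3.61e-06, in iG+A, -1.02 ± 0.17 (SE), adjusted p = 0.000101, in iG+P and -0.81 ± 0.17 (SE), adjusted p = 0.00058, in iGPA. These 6 passed on p, with an SE of 0.17, and none reached a log2 fold change of 1.5. In iPou4f3 the value was -0.02 ± 0.17 (SE), adjusted p = 0.966. The mean over lines, -0.43 ± 0.06 (SE), adjusted p = 1.16e-05, averages effects of opposite sign.

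The ratio of both cadherins with Dox lay above or below that of the controls, depending on the line. The log2 ratio of Cdh2 to Cdh1 was 0.48 to 3.26 in untreated libraries. With Dox it was 2.88 to 3.42 in iAtoh1 and 2.99 to 3.51 in iP+A, compared with 0.48 to 1.69 and 0.84 to 2.21 in their controls. In iG+A it was 0.23 to 1.19 with Dox and 1.77 to 3.26 without. In iPou4f3, where Cdh2 itself did not pass, it was 2.16 to 3.11 with Dox and 1.5 to 2.07 without, and in iGPA 1.32 to 1.49 with Dox and 1.58 to 2.99 without. The ranges with and without Dox did not overlap in these 5 lines and overlapped in iGfi1 and iG+P. Cdh2 is also a gene of neural tissue. Of 8 markers of neural progenitors, 2 rose in iAtoh1 (2.89% of all kept genes did) and none fell, 1 rose (4.7%) and 1 fell (2.58%) in iP+A, and 3 rose (7.35%) and 1 fell (4.95%) in iG+A. In iGPA 2 rose (8.65%) and in iG+P 1 rose (5.16%), with none lower, and in these 2 lines and iG+A Cdh2 was lower. Their summed level was 1914 to 7083 in untreated libraries and 2366 to 6185 with Dox, and none of the 8 was at 0 in all libraries of either kind.

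Epcam (Entrez 17075, chr17:88035319-88050446, plus strand), an adhesion molecule of epithelial cells and of mESCs, did not pass the threshold in any line. In iAtoh1 it stood at 3052 and 973 without Dox and 708 and 502 with Dox. In iG+A it stood at 371 and 1001 without Dox and 289 and 388 with Dox. In iG+P it stood at 1004 and 1166 without Dox and 2483 and 1529 with Dox. The Dox libraries lay below both controls in iAtoh1, overlapped with them in iG+A and lay above both in iG+P. In iGfi1 the values were 1185 and 1171 without Dox and 727 and 665 with Dox. In iPou4f3 they were 665 and 1097 without Dox and 784 and 1206 with Dox. In iP+A they were 862 and 1871 without Dox and 1012 and 1199 with Dox, and in iGPA 949 and 299.7 without Dox and 809.9 and 680.3 with Dox. The groups overlapped in the last 3 of these.

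Epcam had a log2 fold change of -1.53 ± 0.55 (SE), adjusted p = 0.0516, in iAtoh1 by limma, -0.86 ± 0.55 (SE), adjusted p = 0.223, in iG+A and 0.85 ± 0.55 (SE), adjusted p = 0.257, in iG+P. With the replicate number of each line as a block, the iAtoh1 value passed the threshold (adjusted p = 0.00857). It passed as well without the second control of iAtoh1 (-2.35, adjusted p = 0.0133). It also passed with a filter of 50 normalized counts (-1.53, adjusted p = 0.0488) and under quantile normalization (-1.54, adjusted p = 0.0462), and Epcam passed in iG+A against all 14 untreated libraries (-1.52, adjusted p = 0.0129). In the mean over lines Epcam differed by -0.26 ± 0.21 (SE), adjusted p = 0.284.

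The ratio of Epcam to Cdh1 was narrow without Dox and wide with it. In the 14 untreated libraries the log2 ratio of Epcam to Cdh1 lay between -0.92 and -0.49. With Dox it was -2.36 to -1.67 in iG+A and -1.29 to -1.06 in iAtoh1, below that range. It was 0.88 to 1.38 in iG+P, 0.42 to 0.50 in iP+A and 0.13 to 0.44 in iPou4f3, all above it. In iGPA it was -0.41 to -0.30, also above, and in iGfi1 -0.63 to -0.22. The log2 levels of both genes correlated at r = 0.989 over the untreated libraries and at r = -0.255 over the Dox libraries, with 14 libraries each.

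**Figure D3:**
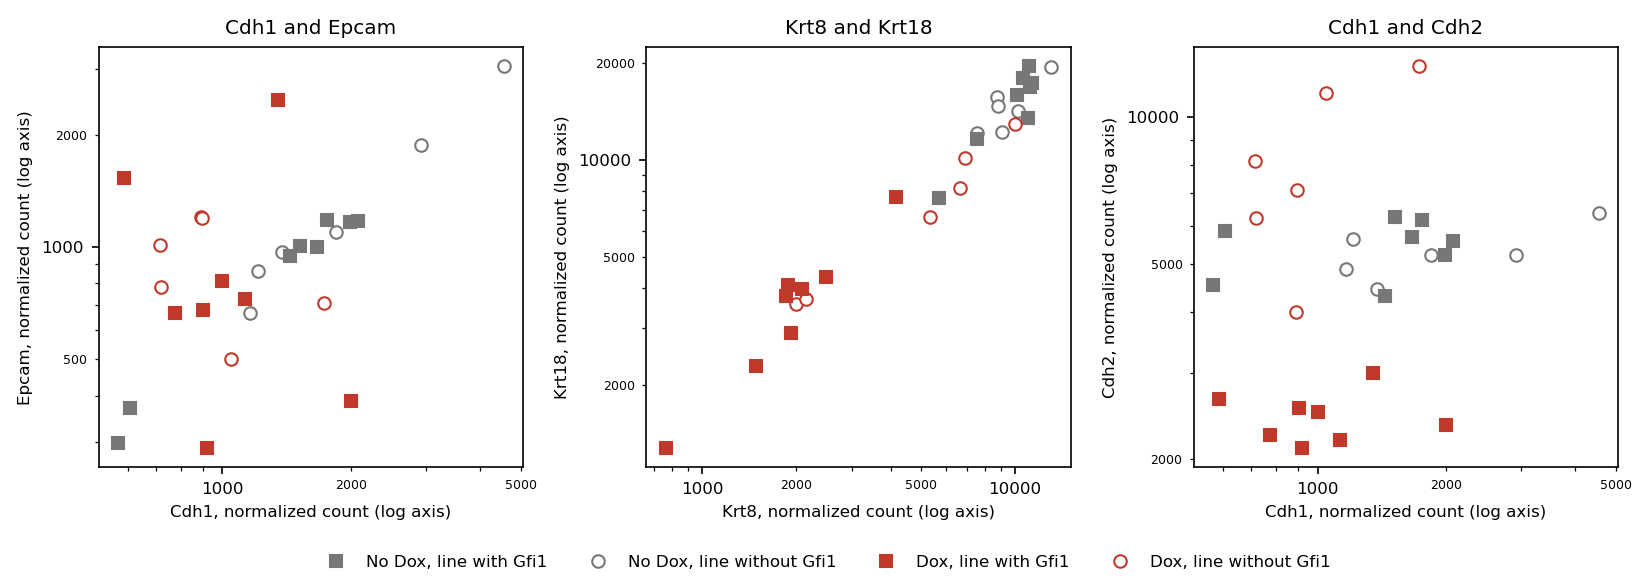
Normalized counts (log axes) of Cdh1 against Epcam, Krt8 against Krt18 and Cdh1 against Cdh2 in the 28 libraries, grey for untreated and red for Dox, with filled squares for lines with Gfi1 and open circles for lines without. Untreated points of Cdh1 and Epcam lie on a single line (r = 0.989) from which the Dox points spread on both sides (r = -0.255), while Krt8 and Krt18 stay on their line in both (r = 0.899 and 0.973).

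Cldn6 (Entrez 54419, chr17:23816332-23819413, plus strand) encodes a claudin of embryonic epithelia and pluripotent cells. It fell in iGfi1, where it stood at 1311 and 1284 without Dox and 423 and 363 with Dox. It also fell in iG+A, with 308 and 1153 without Dox and 140.3 and 227 with Dox. The groups did not overlap in either, but the controls of iG+A were far apart. In iAtoh1 the values were 3248 and 900.2 without Dox and 587 and 562 with Dox. In iP+A they were 893 and 1376 without Dox and 374 and 380.1 with Dox. In iPou4f3 they were 738 and 991 without Dox and 388 and 427 with Dox. In these lines too both Dox libraries lay below both controls. The values were 782 and 1142 without Dox and 558 and 252 with Dox in iG+P and 834 and 331 without Dox and 232 and 245 with Dox in iGPA. The groups did not overlap there, so that the Dox libraries were lower in all 7 lines.

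The log2 fold change of Cldn6 was -1.73 ± 0.57 (SE), adjusted p = 0.0207, in iG+A and -1.72 ± 0.57 (SE), adjusted p = 0.0319, in iGfi1. In the other lines it ran from -1.07 in iPou4f3 to -1.57 in iAtoh1, and the mean over lines was -1.45 ± 0.22 (SE), adjusted p = 1.32e-05, just short of the size, which it reached (-1.53 to -1.58) without the second control of iAtoh1, the first control of iG+A, the first Dox library of iG+P or the second control of iGPA. With the replicate block, Cldn6 also passed in iAtoh1 (adjusted p = 0.0259, against 0.0538 without it) and in iP+A (0.026, against 0.0536). The iGfi1 call was lost without any one of its 4 libraries, with adjusted p between 0.107 and 0.116. The iG+A call was lost without its second control (-0.78, adjusted p = 0.333) or its first Dox library (-1.39, adjusted p = 0.14), whereas Cldn6 passed in iAtoh1 without the second control (-2.50, adjusted p = 0.00992), in iG+P without the first Dox library (-1.90, adjusted p = 0.0469) and in iGPA without the second control (-1.80, adjusted p = 0.0425). Of other settings, the iG+A call was lost in the fit of the compared groups alone (-1.73, adjusted p = 0.119) and the iGfi1 call against all 14 untreated libraries (-1.25, adjusted p = 0.0634), where Cldn6 passed in iGPA (-1.97, adjusted p = 0.00198). Under quantile normalization it passed in iAtoh1 (-1.59, adjusted p = 0.0449), in iP+A (-1.68, adjusted p = 0.0314) and in the mean over lines (-1.54, adjusted p = 4.36e-06), and in the fit of the compared groups in iP+A (-1.55, adjusted p = 0.0235).

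Cldn7 (Entrez 53624, chr11:69778281-69781387, plus strand) encodes a claudin of many epithelia that also binds Epcam at the membrane. It fell in iAtoh1, at 1015 and 345 without Dox and 184 and 213 with Dox. It fell in iG+A, at 108 and 374 without Dox and 46.6 and 80.9 with Dox. In iGfi1 it stood at 384 and 438 without Dox and 149.9 and 139 with Dox. Both Dox libraries were below both controls in these 3 lines, again with controls that lay apart in iAtoh1 and iG+A. In iPou4f3 the values were 257 and 343 without Dox and 132 and 190.3 with Dox. In iG+P they were 266 and 403 without Dox and 265 and 117 with Dox. In iP+A they were 313 and 517 without Dox and 142 and 149 with Dox, and in iGPA 299 and 132 without Dox and 135 and 97.7 with Dox. The groups of iGPA overlapped, and in iG+P the higher Dox library nearly reached the lower control.

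Cldn7 had a log2 fold change of -1.69 ± 0.55 (SE), adjusted p = 0.02, in iG+A and -1.57 ± 0.55 (SE), adjusted p = 0.0469, in iAtoh1. In iGfi1 it was -1.50 ± 0.55 (SE), adjusted p = 0.052, which passed with the replicate block (adjusted p = 0.0218). The mean over lines was -1.26 ± 0.21 (SE), adjusted p = 4.37e-05. The iAtoh1 call was lost without the low-count filter (adjusted p = 0.0547), under 75th percentile rescaling (-1.57, adjusted p = 0.0522), in limma without trend (-1.57, adjusted p = 0.0663), in a fit of the compared groups alone (-1.57, adjusted p = 0.138) and against all 14 untreated libraries (-0.71, adjusted p = 0.278). It was also lost without the first control (-0.80, adjusted p = 0.436), the first Dox library (-1.47, adjusted p = 0.166) or the second (-1.68, adjusted p = 0.119). The iG+A call was lost without the second control (-0.80, adjusted p = 0.312) or the first Dox library (-1.30, adjusted p = 0.15). In the fit of the compared groups alone the iG+A call was lost (-1.69, adjusted p = 0.129) and Cldn7 passed in iGfi1 (-1.50, adjusted p = 0.0104). It passed in iGfi1 with a filter of 50 normalized counts (-1.50, adjusted p = 0.049) and in iP+A under quantile normalization (-1.63, adjusted p = 0.0284).

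Grhl2 (Entrez 252973, chr15:37162791-37293324, plus strand), the grainyhead-like factor that activates Cdh1 and claudin genes in epithelia, was the lowest of the 10 genes. It fell in iP+A, where it stood at 184 and 647 without Dox and 74.2 and 114 with Dox. In iAtoh1 it stood at 521 and 267 without Dox and 193 and 108 with Dox. In iGfi1 it stood at 189 and 272 without Dox and 193 and 195 with Dox. The second control of iP+A was the highest of all 28 libraries. In iPou4f3 the values were 137 and 242 without Dox and 118 and 167 with Dox. In iG+A they were 98 and 205 without Dox and 82.3 and 137 with Dox. In iG+P they were 217 and 268 without Dox and 158 and 119.8 with Dox, and in iGPA 174 and 61.6 without Dox and 55 and 90.9 with Dox. The groups overlapped in iGfi1, iPou4f3, iG+A and iGPA.

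For Grhl2 the log2 fold change was -1.89 ± 0.57 (SE), adjusted p = 0.0196, in iP+A. In iAtoh1 it was -1.36 ± 0.57 (SE), adjusted p = 0.0905, and elsewhere it lay between -0.80 in iG+P and -0.22 in iGfi1. The iP+A call rested on the high control: without it the value was -0.99, adjusted p = 0.301. It was lost as well without the first Dox library of iP+A (-1.59, adjusted p = 0.155). In a fit of the compared groups alone the call was lost too (-1.89, adjusted p = 0.13), as it was against all 14 untreated libraries (-1.19, adjusted p = 0.075), where Grhl2 passed in iGPA (-1.57, adjusted p = 0.0143). The mean over lines was -0.80 ± 0.21 (SE), adjusted p = 0.00336.

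Cdh1, Epcam, Cldn6, Cldn7 and Grhl2 varied together among untreated EBs, and their SE in a line was 0.55 to 0.60, against 0.17 to 0.34 for Cdh2, Vim and the keratins. Over the 14 untreated libraries the log2 level of Cdh1 correlated with those of Epcam, Cldn7, Cldn6 and Grhl2 at r = 0.989, 0.974, 0.969 and 0.934, and with those of Krt19, Krt18, Cdh2, Vim and Krt8 at r = 0.449, 0.436, 0.366, 0.311 and 0.161. Cdh1 was highest in the first control of iAtoh1, as were Epcam, Cldn6 and Cldn7. The lowest libraries were the second control of iGPA for Cdh1, Epcam and Grhl2, and the first control of iG+A for Cldn6 and Cldn7.

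Markers of pluripotent cells varied beside these genes. The summed level of 12 such markers was 4512 to 32252 over the untreated libraries, highest in the second control of iP+A, next in the first of iAtoh1 (22835) and lowest in the second of iGPA. Its log2 correlated at r = 0.973 with Grhl2, 0.898 with Epcam, 0.879 with Cdh1, 0.828 with Cldn7 and 0.794 with Cldn6, and at r = 0.422 with Krt19, 0.417 with Vim, 0.348 with Krt18, 0.23 with Cdh2 and 0.121 with Krt8, over 14 libraries that share lines. With Dox the sum was 4493 to 10249, and none of the 12 was at 0 in all libraries of either kind. In iAtoh1, iGfi1, iPou4f3, iG+A, iG+P, iP+A and iGPA, 1, 0, 0, 5, 2, 7 and 4 markers fell and none rose, where 0.606% to 5.36% of all kept genes fell. The part of remaining pluripotent cells in the levels of these 5 genes was not tested.

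No difference between the untreated lines was found in the 10 genes. The F test of limma over the 7 untreated groups called 0 of 10 at an adjusted p under 0.05, against 12.1% of all kept genes. Grhl2 was the only one of the 10 with an unadjusted p under 0.05 by limma. Each Dox effect was nonetheless read against the controls of its own line.

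Counted by line, 5 of the 10 genes fell in iG+A (4.95% of all kept genes fell there), 5 in iGfi1 (2.67%), 4 in iGPA (5.31%), 4 in iG+P (5.36%), 4 in iAtoh1 (2.52%) and 2 in iP+A (2.58%). None rose in any line, where 1.47% to 8.65% of all kept genes did, and at an unadjusted p under 0.05 by limma 1 gene was higher in each of iAtoh1 and iP+A, Cdh2 in both. In iPou4f3, 0 of 10 passed in either direction (2.08% of all kept genes did), and at an unadjusted p under 0.05 by limma there was 1, Krt19. The median log2 fold change of the 10 genes was -1.55 in iAtoh1, -1.53 in iG+A, -1.51 in iGfi1, -1.20 in iP+A, -1.17 in iG+P, -0.98 in iGPA and -0.23 in iPou4f3, where the median of all kept genes lay between -0.0296 and 0.0215. Each count of genes that fell, but for the 0 in iPou4f3, changed when single libraries were left out, as given below.

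By the order of libraries, both Dox libraries were below both controls for 7 of the 10 genes in iAtoh1 (30.6% of all kept genes), 9 in iGfi1 (32.5%) and 4 in iPou4f3 (26.3%). The numbers were 9 in iG+P (34.1%), 8 in iP+A (34%), 7 in iG+A (32.1%) and 6 in iGPA (36.4%). Both Dox libraries were above both controls for Cdh2 in iAtoh1 (29.4%) and iP+A (31.1%) and for Epcam in iG+P (34.2%). With 2 libraries a group such an order is common.

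The lines also allow the effect of a factor to be read as it is added to a cassette. For each factor the difference of Dox effects was averaged over 3 pairs of lines that differ by that factor, for example iG+A minus iAtoh1, iG+P minus iPou4f3 and iGPA minus iP+A for Gfi1. These contrasts use the same libraries as the Dox effects above and share lines with each other.

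On adding Gfi1, the Dox effects on Krt19, Vim, Cdh2 and Krt8 were lower. These were 4 of 10 genes past the threshold, against 3.07% of all kept genes that were lower. The mean difference of Dox effects was -2.0 ± 0.21 (SE), adjusted p = 1.07e-06, for Krt19, -1.87 ± 0.18 (SE), adjusted p = 2.76e-07, for Vim, -1.61 ± 0.14 (SE), adjusted p = 6.62e-08, for Cdh2 and -1.53 ± 0.24 (SE), adjusted p = 8.28e-05, for Krt8, in log2 units by limma. For Krt18 it was -1.18 ± 0.28 (SE), adjusted p = 0.00292, short of the size. Cdh1 (0.85 ± 0.49 (SE), adjusted p = 0.198), Epcam (0.67 ± 0.45 (SE), adjusted p = 0.273), Grhl2 (0.62 ± 0.46 (SE), adjusted p = 0.327), Cldn7 (0.19 ± 0.45 (SE), adjusted p = 0.787) and Cldn6 (-0.00 ± 0.46 (SE), adjusted p = 0.997) were not called, and for Cdh1 the 95% interval of the difference ran from -0.18 to 1.87. The call of Krt8 was lost, at -1.32 to -1.49, without any one of 7 libraries: the second control or first Dox library of iPou4f3, the second control or second Dox library of iG+A, the second control or first Dox library of iP+A, or the first Dox library of iGPA.

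Among the Dox libraries, those with Gfi1 in the cassette all lay below those without it for 3 of the 10 genes, Cdh2, Krt19 and Vim, against 5.51% of all kept genes. For Krt19 the 8 libraries with Gfi1 ranged from 69.5 to 233 and the 6 without from 339 to 544.7. The values of Vim and Cdh2 are given above.

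The pairs of lines behind these means were also compared singly. Over the 9 pairs of lines, 9 of 90 differences passed the threshold, all from adding Gfi1 and all lower. Other settings gave calls from the other factors: on adding Atoh1, Krt19 was lower in iG+A minus iGfi1 under quantile normalization (-1.69, adjusted p = 0.0018) and without the first control of iG+A (-1.57, adjusted p = 0.0142). On adding Pou4f3, in iG+P minus iGfi1, Krt19 was lower without the first Dox library of iG+P (-1.58, adjusted p = 0.012) and Epcam was higher in a fit of the compared groups alone (1.61, adjusted p = 0.0321). At a log2 fold change of at least 1, adding Atoh1 gave Krt19 lower in iG+A minus iGfi1 (-1.33, adjusted p = 0.0128 by limma). It also gave Vim higher in iGPA minus iG+P (1.015, adjusted p = 0.0305 by limma). The calls given next are those of the fit of all libraries at the threshold given above. In iG+A minus iAtoh1 they were Cdh2 (-2.54, adjusted p = 1.79e-06) and Krt19 (-2.11, adjusted p = 0.000697), where 2.44% of all kept genes were lower. In iG+P minus iPou4f3 they were Vim (-2.79, adjusted p = 7.71e-06), Krt8 (-2.46, adjusted p = 0.000554), Krt19 (-2.35, adjusted p = 0.000264) and Krt18 (-2.12, adjusted p = 0.00507), where 4.19% were. In iGPA minus iP+A they were Krt8 (-1.77, adjusted p = 0.00675), Krt19 (-1.55, adjusted p = 0.00661) and Vim (-1.51, adjusted p = 0.00215), where 2.84% were. In this last pair the call of Krt19 was lost, at -1.36 to -1.46, without the second control or second Dox library of iP+A or the second control or first Dox library of iGPA. That of Vim was lost, at -1.08 to -1.50, without the first control or second Dox library of iP+A or the first control or first Dox library of iGPA. With a pseudocount of 5 the call of Krt19 was lost (-1.49, adjusted p = 0.0073), and under 75th percentile rescaling that of Vim (-1.47, adjusted p = 0.00203).

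In the single pairs that add Atoh1, 8.54% (iG+A minus iGfi1), 1.61% (iP+A minus iPou4f3) and 5.9% (iGPA minus iG+P) of all kept genes passed, and in those that add Pou4f3 1.85% (iG+P minus iGfi1), 2.78% (iP+A minus iAtoh1) and 2.2% (iGPA minus iG+A).

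Adding Atoh1 or Pou4f3 moved none of the 10 genes past the threshold by limma. For Atoh1, 5.13% of all kept genes passed, and at an unadjusted p under 0.05 there were 4 of 10, Krt8, Krt18, Krt19 and Vim. The largest was Krt19, at -0.83 ± 0.21 (SE), adjusted p = 0.00639. For Pou4f3, 2.72% of all kept genes passed, and 3 of 10 had an unadjusted p under 0.05, Epcam, Krt19 and Vim. Epcam was higher by 1.42 ± 0.45 (SE), adjusted p = 0.048, with a 95% interval of 0.48 to 2.36, past the threshold on p and just short of it on size. Epcam passed, at 1.54 to 1.70, without the second control of iAtoh1, the first of iG+A, the second of iP+A, the first of iGPA or the second Dox library of iG+P. The plot of the 3 added factors shows these means with their single pairs.

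**Figure D4:**
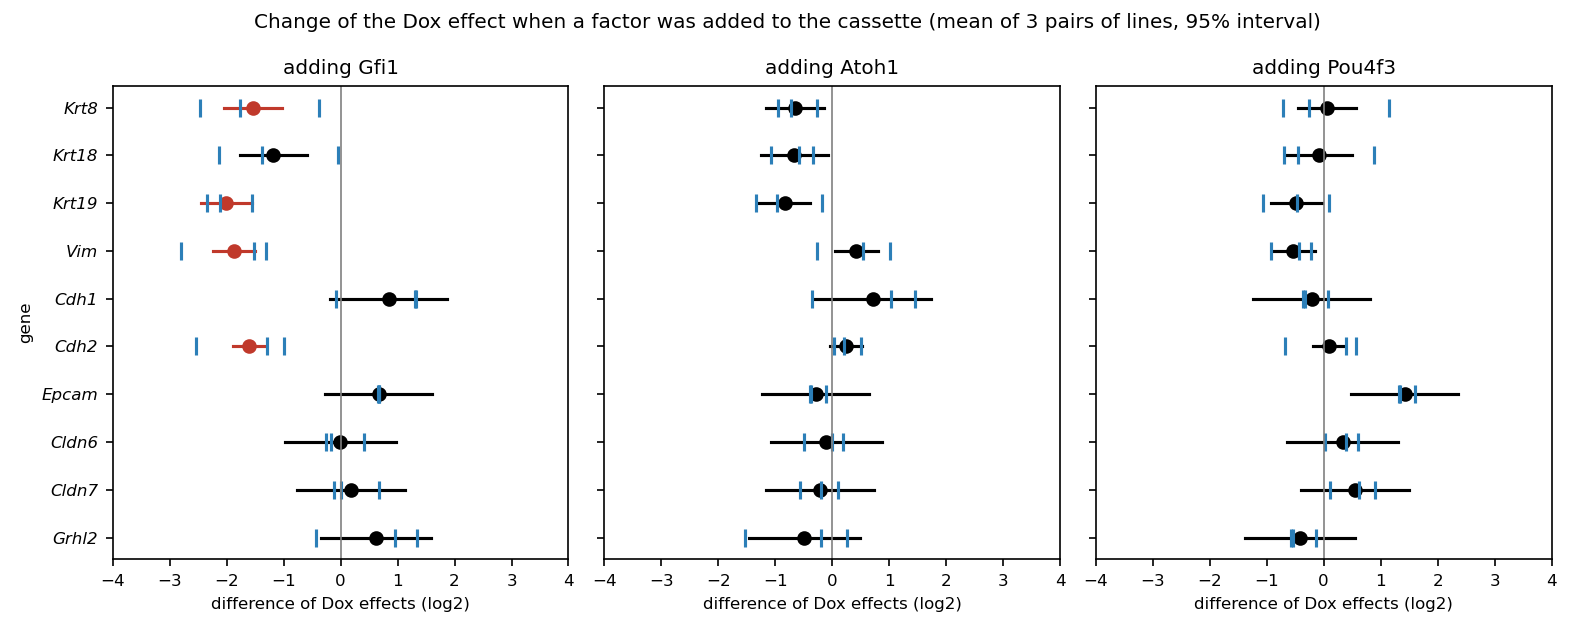
Difference of Dox effects (log2 units, horizontal) on adding Gfi1, Atoh1 or Pou4f3 (panels) for the 10 genes (vertical), as the mean of 3 pairs of lines with its 95% interval, blue ticks for the single pairs and red where past the threshold. Cdh2, Krt8, Krt19 and Vim lie left of 0 on adding Gfi1 (-1.53 to -2.0), and Epcam lies right of 0 on adding Pou4f3 (1.42, interval 0.48 to 2.36).

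Over the 14 group means the correlations followed the epithelial and mesenchymal labels of the 10 genes only in part. Vim, a mesenchymal marker, correlated at r = 0.86 with Krt19 and 0.79 with Krt8, similar to its r = 0.80 with Cdh2, and at r = 0.41 with Cdh1. Krt8 and Krt18 (r = 0.99) and Cldn6 and Cldn7 (r = 0.99) were the closest pairs. Cdh1 correlated at r = 0.28 with Epcam and r = 0.34 with Krt8, but at r = 0.79 with Grhl2, 0.75 with Cldn6 and 0.71 with Cldn7. Between the labels, r was 0.06 for Vim with Epcam and 0.25 for Cdh2 with Grhl2. These values describe 14 means that share lines and carry no test.

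The genes most like each of the 10 over the 14 group means were looked up among 14755 genes with a group mean of at least 50 normalized counts. For Krt8 they were Pard6b (r = 0.99), S100a10 (0.99) and Cobll1 (0.98), and for Krt18 Pard6b (0.99), Slc2a1 (0.99) and Stard8 (0.98). For Krt19 they were Pkp2, Stx3 (0.99 each) and Tmem88 (0.98), and for Vim Reck (0.99), Lrp1 and Dennd5b (0.98 each). For Cldn6 they were Bspry (0.98), Gabrp and L1td1 (0.97 each), and for Cldn7 Bspry (0.97), Sox2 (0.96) and Ano9 (0.94). For Cdh2 they were Slc24a2 (0.97), Plekha1 (0.96) and Fam181b (0.95), for Cdh1 Foxa2 (0.93) and Fermt1 (0.91), for Epcam Ap3b2 (0.93), Tnk1 and Rims2 (0.91 each) and for Grhl2 Zfp459 (0.96), Gpa33 (0.95) and Eps8 (0.94). Pard6b is a polarity protein of the apical complex and Pkp2 a plakophilin of desmosomes.

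Of 26 regulators of transitions between the epithelial and mesenchymal states, at most 3 rose and at most 6 fell in a line. In iAtoh1, iGfi1, iPou4f3, iG+A, iG+P, iP+A and iGPA, 1, 1, 0, 3, 1, 2 and 2 rose (2.89%, 2.15%, 1.47%, 7.35%, 5.16%, 4.7% and 8.65% of all kept genes did) and 3, 4, 0, 4, 6, 4 and 4 fell (2.52%, 2.67%, 0.606%, 4.95%, 5.36%, 2.58% and 5.31%). In iPou4f3 the median log2 fold change of the 26 was -0.46 with none called by limma, and 9 of them had an unadjusted p under 0.05. Elsewhere the medians lay between -0.55 in iP+A and 0.12 in iGPA.

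Snai2 and Twist2, a Snail zinc finger and a basic helix-loop-helix factor that promote the mesenchymal state, fell in the 4 lines with Gfi1 and in no other. In iG+P Snai2 stood at 5466 and 4491 without Dox and 445 and 571 with Dox. In iGPA it stood at 4406 and 3950.3 without Dox and 652 and 521 with Dox. The groups were far apart in both. The log2 fold changes of Snai2 were -3.29 ± 0.44 (SE), adjusted p = 1.15e-05, in iG+P, -2.84 ± 0.44 (SE), adjusted p = 3.73e-05, in iGPA, -2.48 ± 0.44 (SE), adjusted p = 0.0002, in iG+A and -1.54 ± 0.44 (SE), adjusted p = 0.0142, in iGfi1. Those of Twist2 were -2.90 ± 0.28 (SE), adjusted p = 1.33e-07, in iGPA, -2.63 ± 0.28 (SE), adjusted p = 7.95e-07, in iG+P, -1.79 ± 0.28 (SE), adjusted p = 0.000156, in iGfi1 and -1.52 ± 0.28 (SE), adjusted p = 0.000262, in iG+A. On adding Gfi1, Snai2 differed by -2.89 ± 0.36 (SE), adjusted p = 5.81e-06, and Twist2 by -1.98 ± 0.22 (SE), adjusted p = 2.26e-06.

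Foxc2, a forkhead factor of mesenchyme, rose in the same 4 lines. In iG+P it stood at 43.1 and 66.3 without Dox and 513 and 263 with Dox. The iG+A libraries stood at 30.2 and 71.8 without Dox and 148 and 428 with Dox, and the Dox libraries of the other lines with Gfi1 lay between 104.9 and 289. The log2 fold change was 2.76 ± 0.57 (SE), adjusted p = 0.000891, in iG+P and 2.71 ± 0.46 (SE), adjusted p = 0.00017, on adding Gfi1. Its Dox libraries in lines without Gfi1 lay between 21.8 and 57.6, within the range of all untreated libraries (17.3 to 71.8).

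Zeb1, a zinc finger repressor of Cdh1, rose in iAtoh1, where Cdh2 was higher as well. It stood at 2351 and 2756 without Dox and 6587 and 9387 with Dox, a log2 fold change of 1.63 ± 0.14 (SE), adjusted p = 2.03e-07. In iP+A it stood at 3314 and 3018 without Dox and 5903 and 4998 with Dox, a change of 0.78 ± 0.14 (SE), adjusted p = 0.000373, short of the size. Dox libraries of both lines lay above all controls, as did those of iG+A and iGPA. Of its relatives, Snai1 rose in iG+A (1.58 ± 0.32 (SE), adjusted p = 0.000759), Snai3 fell in iP+A by 2.04 at low counts of 4.80 to 65.3, and Zeb2 did not pass in any line.

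Among factors of epithelial cells, Tfap2c fell in 5 lines. The iG+A libraries stood at 475 and 555 without Dox and 65.1 and 99.6 with Dox. In iP+A it stood at 532 and 2195 without Dox and 119 and 276 with Dox, with controls far apart. The mean over lines was -1.95 ± 0.20 (SE), adjusted p = 1.6e-07. Its paralog Tfap2a rose in iP+A (2.55 ± 0.51 (SE), adjusted p = 0.00133), fell in iGfi1 and iG+P, and differed by -2.75 ± 0.42 (SE), adjusted p = 5.6e-05, on adding Gfi1. Grhl1 and Grhl3, paralogs of Grhl2, went opposite ways in iP+A, with 1.64 ± 0.35 (SE), adjusted p = 0.00187, for Grhl1 and -2.09 ± 0.48 (SE), adjusted p = 0.00381, for Grhl3.

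The splicing factors Esrp1 and Esrp2, which set epithelial isoforms, fell in some lines. Esrp1 fell by 1.54 in iGfi1 and by 1.61 in iG+P, and Esrp2 by 1.52 in iAtoh1. The Ets factor Elf3 fell in iAtoh1 by 1.52 and rose in iGPA (2.04 ± 0.49 (SE), adjusted p = 0.00236). Elf5 fell in iG+A by 3.09 and in iGPA by 2.05, at no more than 42.0 normalized counts. Ehf was at 0 in both controls of iG+A and at 34.4 and 39.5 with Dox, at least 9.87-fold higher against a floor of 3 reads in a library. With Ehf at this bound the median of the 26 regulators in iG+A, -0.35, is the same.

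The ligand Tgfb2 fell in iG+P by 2.42 and Prrx1, a homeobox factor of mesenchyme, in iP+A by 1.95. Ovol1 and Trp63, factors of stratified epithelia, passed in no line and differed on adding Gfi1 by 1.52 ± 0.33 (SE), adjusted p = 0.00144, and 1.82 ± 0.60 (SE), adjusted p = 0.025, with Trp63 at no more than 29.1 normalized counts. Ovol2, Twist1, Tcf4, Tgfb1, Klf4 and Klf5 passed in no line. On adding Gfi1, 5 of the 26 were higher (4.84% of all kept genes) and 3 lower (3.07%). The heat map of the regulators shows these effects.

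**Figure D5:**
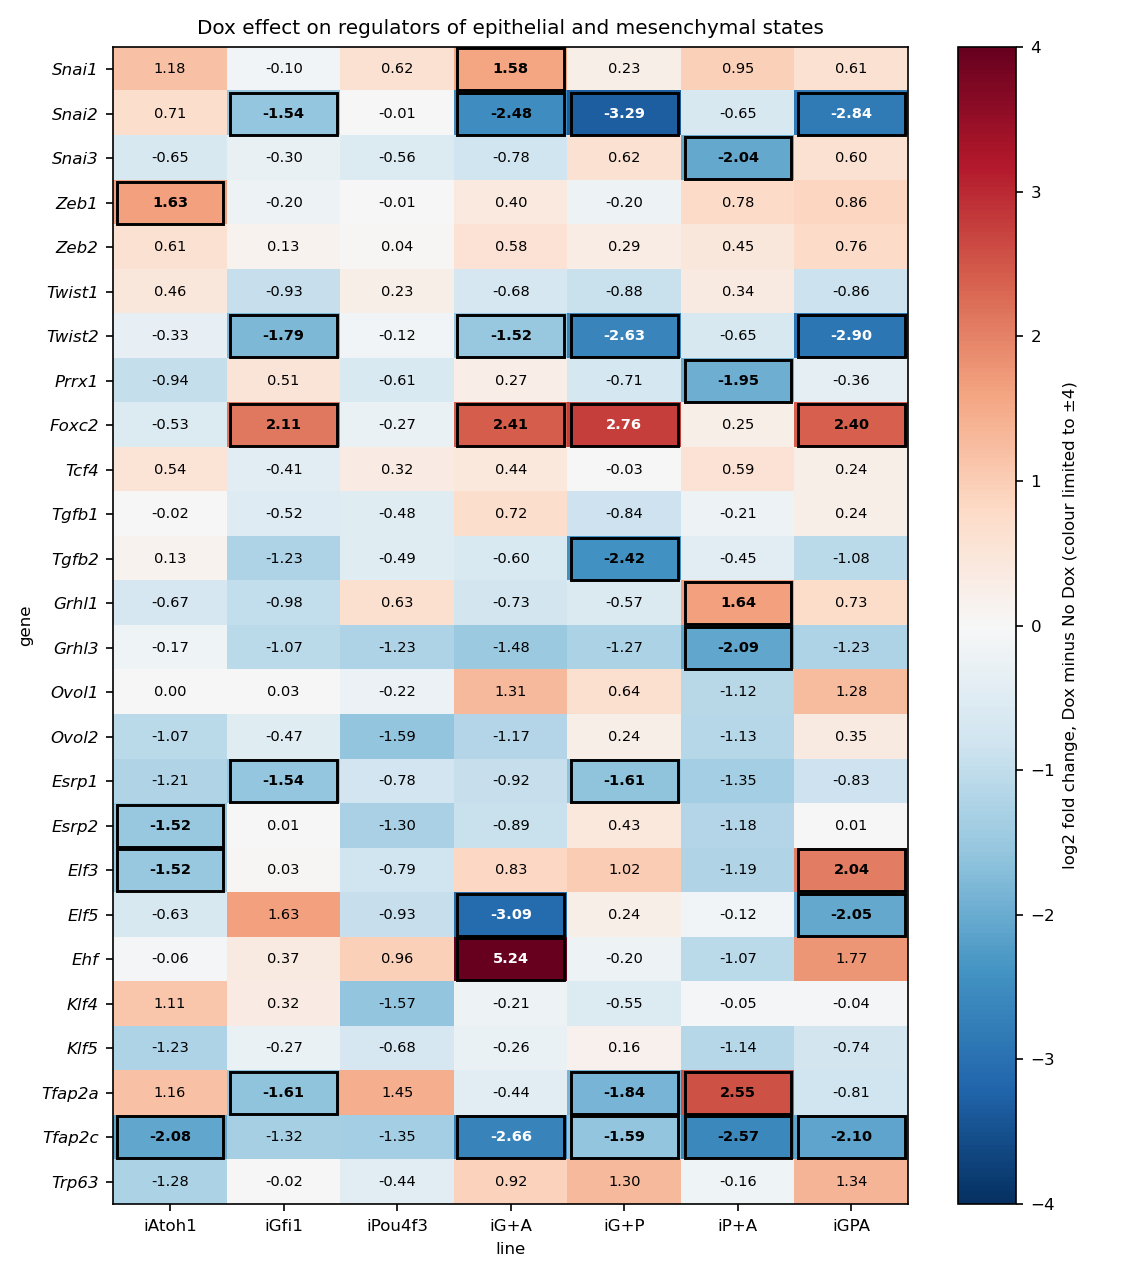
Log2 fold change of Dox against No Dox for 26 regulators of epithelial and mesenchymal states (vertical) in the 7 lines (horizontal), with boxes around values past the threshold. Snai2 and Twist2 are lower and Foxc2 is higher in the 4 lines with Gfi1, and Tfap2c is lower in 5 lines, whereas no regulator is boxed in iPou4f3. The value drawn for Ehf in iG+A rests on controls at 0.

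Of 20 genes of adherens junctions and desmosomes, 0 to 2 rose and 0 to 3 fell in a line. In iP+A 4 were called (4.7% of all kept genes rose and 2.58% fell), and in iGPA 4 (8.65% and 5.31%). The number was 3 in iG+A (7.35% and 4.95%) and 2 in each of iGfi1 (2.15% and 2.67%) and iG+P (5.16% and 5.36%). P-cadherin (Cdh3) fell in iGPA (-2.20 ± 0.28 (SE), adjusted p = 3.63e-06) and in 3 other lines, and Pkp2 in the 4 lines with Gfi1, with -2.12 ± 0.19 (SE), adjusted p = 1.18e-07, in iG+P. The nectin Nectin1 rose in iG+A, iP+A and iGPA by 1.55 to 1.75, and the desmosomal protein Perp fell in iP+A by 1.93. In iAtoh1 (2.89% of all kept genes rose and 2.52% fell) and iPou4f3 (1.47% and 0.606%) none of the 20 passed by limma. In each of these lines 9 had an unadjusted p under 0.05.

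Of 27 tight junction and polarity genes, 5 fell in iAtoh1 (2.52% of all kept genes did) and 5 in iP+A (2.58%). In these lines 0 (2.89%) and 1 (4.7%) rose. In iG+A 3 rose (7.35%) and 2 fell (4.95%), and in iGPA 4 rose (8.65%) and 2 fell (5.31%). In each of iGfi1 (2.67%) and iG+P (5.36%) 1 fell, and none rose (2.15% and 5.16% of all kept genes did). In iPou4f3 limma called 0 of the 27, and 3 had an unadjusted p under 0.05. Pard6b fell in 5 lines, from -1.62 in iAtoh1 to -2.31 in iG+A. Claudin 3 (Cldn3) fell in iAtoh1 (-1.95 ± 0.58 (SE), adjusted p = 0.0205) but rose in iG+A (3.15 ± 0.58 (SE), adjusted p = 0.00029) and iGPA (2.82 ± 0.58 (SE), adjusted p = 0.000585), and differed by 3.53 ± 0.47 (SE), adjusted p = 1.33e-05 on adding Gfi1. The polarity protein Crb3 fell in iAtoh1 by 1.63 and in iP+A by 1.87, and Cldn9 fell in 3 lines at no more than 34.8 normalized counts.

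Of 17 other intermediate filament genes that passed the filter out of 21, 0 to 6 rose and 0 to 3 fell in a line, with 6 up (8.65% of all kept genes) and 3 down (5.31%) in iGPA. Prph, the peripherin of peripheral neurons, rose in iAtoh1 (4.34 ± 0.43 (SE), adjusted p = 1.6e-06), iP+A (4.30 ± 0.43 (SE), adjusted p = 7.8e-07), iGPA and iG+A. The neurofilament gene Nefl rose in iGPA (5.32 ± 0.51 (SE), adjusted p = 1.47e-07), iP+A and iAtoh1. Krt15 fell in 5 lines, and Krt20 rose in the 4 lines with Gfi1 at no more than 42.6 normalized counts. Of 10 neuronal markers, 9 rose in iP+A (4.7% of all kept genes did), 8 in iGPA (8.65%), 4 in each of iAtoh1 (2.89%) and iG+A (7.35%), and 3 in each of iG+P (5.16%) and iPou4f3 (1.47%), where Prph did not pass, with 1 lower in each of iAtoh1 and iG+A. They summed to 499.7 to 1761 without Dox and to 883.8 to 23969.9 with it, and none was at 0 in all libraries of either kind.

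Of 14 further classical and type II cadherins, 1 to 6 rose and 0 to 2 fell in a line, where 1.47% to 8.65% of all kept genes rose and 0.606% to 5.36% fell. In each of iAtoh1 and iPou4f3 1 rose and 1 fell, and in iGPA 6 rose and 1 fell. Cdh20 rose in iG+P (4.77 ± 0.55 (SE), adjusted p = 2.54e-06), iP+A, iGPA and iGfi1, and Cdh15 in iG+A (4.17 ± 0.47 (SE), adjusted p = 1.54e-06), iGPA, iAtoh1 and iG+P, and fell in iPou4f3 by 1.78. Cdh9 rose in the 4 lines with Gfi1, up to 118.1 normalized counts from no more than 8.80 without Dox. Cdh6 fell in 5 lines, by 3.08 in iGPA.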

How the data were processed

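RNA-seq of 28 libraries was taken from the table that the authors deposited, with 2 libraries (clones) for each of 14 groups of line and Dox. Groups were taken from the GEO labels. Libraries were made from 1 µg of RNA with the KAPA mRNA HyperPrep kit. The authors trimmed reads with cutadapt, assigned them by Kallisto to knownGene transcripts (UCSC, mm9), took gene sums with tximport and used DESeq2 for normalization, with versions not given in the sources used here. The deposited values are log2 of the authors' normalized count plus 1, which was found from the values, so normalized counts were obtained by undoing the log2 and the 1. Since the values are not counts, the log2 values were tested as deposited. Whole reads could not be recovered: 72.4% to 79.6% of low values lay within 0.05 of a whole multiple of the library's smallest step, so no count model was run. These steps put the depth at 30.3 M to 48.0 M reads. The SE rested on the spread between the 2 libraries of a group, shared by the 14 groups, and counting error was not estimated apart from it. Where clones are not separate cultures, p-values measure technical spread as well.

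Entrez identifiers were matched to symbols for 19314 of 19421 genes and placed by the NCBIM37 annotation, and promoters came from RefSeq. A gene was kept where 2 or more libraries held 10 or more normalized counts (16837 genes). The 14 groups shared a limma 3.58.1 fit (trend) in R 4.3.3, with 14 residual degrees of freedom, and p-values were adjusted by Benjamini-Hochberg over all kept genes in each contrast, two-sided. Called genes had an adjusted p under 0.05 and a log2 fold change of at least 1.5, the threshold of the study's methods. The fit was tested on simulated data with known changes. Figures were drawn in Python 3.11.15 with matplotlib 3.10.9.

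The genes, lists and contrasts were chosen with earlier results of these data known, and no list is independent support for its direction. Named genes were the 10, every regulator of a list of 26, at most 4 genes of each other list (those called in most lines, ties by size of effect) and the 3 genes most like each of the 10 over group means, of which 1 is not reported here.

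Replicate numbers were taken to pair Dox and No Dox libraries of a line, since the record describes replicates as clones, although equal numbers are not stated to be equal clones. The paper labels its biological replicates as experiments, and does not state whether a number marks the same experiment in all lines. The deviations from group means of libraries with the same number correlated over genes in every line (r = 0.246 in iP+A, 0.238 in iAtoh1, 0.231 in iPou4f3, 0.158 in iG+A, 0.152 in iGPA, 0.127 in iGfi1 and 0.103 in iG+P), and a fit in which line and number formed a block was made beside the one without. Alternatives were the block, the pseudocount, the filter, the normalization, the choice of controls and samples, the fold threshold, limma without a trend, and leaving out each library.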

Additional observations from a re-analysis of the deposited data

Results flagged for a closer look

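The results below were set apart because the effect of Dox on the same gene differed between lines by the test of that difference, an adjusted p under 0.05 and at least 1.5 log2 units by limma. Of 30 differences averaged over 3 pairs of lines, 4 met this, all on adding Gfi1 to a cassette. The averages were -2.0 for Krt19, -1.87 for Vim, -1.61 for Cdh2 and -1.53 for Krt8, each lower where Gfi1 was added. For Krt8 the pair iG+A minus iAtoh1 was not called, at -0.37, and was 0.27 without the second Dox library of iG+A. Of 90 differences between single pairs of lines, 9 met it. Between iG+A and iAtoh1 they were Cdh2 (-2.54) and Krt19 (-2.11). Between iG+P and iPou4f3 they were Vim (-2.79), Krt8 (-2.46), Krt19 (-2.35) and Krt18 (-2.12). Between iGPA and iP+A they were Krt8 (-1.77), Krt19 (-1.55) and Vim (-1.51).

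Of 20 markers of fibroblasts and mesenchyme, 9 were lower on adding Gfi1 and none higher, where 3.07% of all kept genes were lower, and their median difference was -1.46 log2 units. The part of these cells in these differences was not tested.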

How the results depend on the processing

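Of 20 counts of the 10 genes, none changed direction under any alternative that was run on it, and no called effect of a gene turned its sign. Not every alternative was run on every count, and the common control was used for the Dox effects alone. Quantile normalization gave 4 genes lower in iP+A in place of 2. It also added Epcam and Cldn6 in iAtoh1 and Cldn6 in the mean over lines, and lost Krt18 in iGfi1. A fit on the compared groups alone gave 3 in iG+A in place of 5. With all 14 untreated libraries as a common control, the genes lower were 2 in iAtoh1 (from 4), 3 in iGfi1 (from 5) and 1 in iP+A (from 2), but 7 in iG+A (from 5, with Epcam and Vim added) and 6 in iGPA (from 4, with Cldn6 and Grhl2 added). At a log2 fold change of at least 1, 1 gene was higher in iAtoh1 (Cdh2), 1 lower in iPou4f3 (Krt19), 6 passed in the mean over lines (from 3) and 1 on adding Pou4f3 (Epcam). At that size Cdh2 was also called lower in iGfi1 (-1.40), iG+A (-1.37) and iG+P (-1.02). Vim was lower in iG+A (-1.24), and Krt18 in iP+A (-1.17) and on adding Gfi1 (-1.18). With the replicate block, 6 genes were lower in iAtoh1, 6 in iGfi1 and 3 in iP+A, through Epcam, Cldn6 and Cldn7 as given above, and the block changed no other call. The cause of these shifts was not tested, apart from the lower threshold itself.

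Leaving out 1 library gave 2 to 6 lower genes in iAtoh1 (2 without its first control and 6 without the second), 2 to 4 in iGfi1 (2 without its first Dox library), 3 to 5 in iG+A, 4 to 5 in iG+P, 1 to 2 in iP+A and 3 to 5 in iGPA. It gave 0 in iPou4f3 throughout, 3 to 4 genes past the threshold in the mean over lines, 3 to 4 on adding Gfi1, 0 on adding Atoh1, 0 to 1 on adding Pou4f3, 7 to 10 over the single pairs and 0 between untreated lines. A group left with 1 library was taken to vary like the others. In all, 14 Dox effects of 8 genes (every one but Cdh1 and Cdh2) changed their call in this way, 20 times to a lost call and 4 times to a gained one. With 2 libraries a group, the spread between libraries sets these limits.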

Other observations

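EBs also form blood. Of 10 blood markers, 7 fell in iAtoh1 (2.52% of all kept genes did), 6 in iP+A (2.58%), 5 in iG+A (4.95%), 5 in iGPA (5.31%) and 2 in iG+P (5.36%), and none rose. The embryonic globin gene Hbb-bh1 fell by 4.43 on the log2 scale in iGPA and fell by 3.57 in iAtoh1 (adjusted p = 9.35e-07 and 4.94e-05 by limma). In iGfi1 and iPou4f3 limma called none, with 6 and 3 of the 10 at an unadjusted p under 0.05. Of 8 endothelial markers, 2 fell in each of iAtoh1 and iG+P and 1 in each of iGPA and iP+A, where 2.52%, 5.36%, 5.31% and 2.58% of all kept genes did, and Pecam1, the adhesion molecule CD31, fell by 3.18 in iG+P. Cldn5, the claudin of endothelium, rose in iGPA by 1.68.

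Of 7 early mesoderm markers limma called none in any line, with 0 to 2 at an unadjusted p under 0.05. Of 10 genes of dissociation stress, 2 fell in iG+A (4.95% of all kept genes did) and none was called elsewhere, with 0 to 2 at an unadjusted p under 0.05 in the other lines. Their summed level was 30281 to 162548 normalized counts in untreated EBs and 27467 to 161995 in the sorted cells.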
